A study of Homo sapiens with 2 samples.

Results

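The 32 genes described here encode the glucose transporters, enzymes and regulators of glycolysis and gluconeogenesis. They were taken from a list of symbols that was chosen with earlier results of these data known. Each probe set annotated to exactly 1 of these symbols was used, 68 probe sets in all. All 32 genes were among the 19775 genes that had a probe set of their own on the array. Transcripts were measured in 2 cultures of PLC/PRF/5, an established human hepatocellular carcinoma (HCC) line, with 1 Affymetrix array for each. The first culture was chemoresistant hepatospheres, spheroids exposed to cisplatin, which crosslinks DNA, together with doxorubicin, a topoisomerase poison. The second was differentiated cells, which were spheroids that had received fetal bovine serum (FBS) and had been left to attach. Both cultures share the same parent line and passed through spheroid growth. Spheroid form, serum and attachment all differed between these cultures, the labels give the drug exposure for the hepatospheres only, and the parts of these in any difference cannot be told apart. The labels give no drug doses or times, and leave unstated if the differentiated cells descend from drugged spheroids. With 1 array a group, no difference could be tested and no value carries an error.

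Glycolysis splits glucose into pyruvate, yielding ATP, and lactate dehydrogenase can turn the pyruvate into lactate. Gluconeogenesis runs most of the same reversible steps backwards and bypasses the irreversible ones with its own enzymes, so that the liver can release glucose into blood. Many steps have several isoforms encoded by separate genes: hepatocytes typically use the transporter GLUT2 and the liver forms of pyruvate kinase and PEP carboxykinase, whereas tumours commonly use GLUT1, hexokinase 2, the M form of pyruvate kinase and lactate dehydrogenase A. A low oxygen supply raises many of the glycolytic genes through hypoxia-inducible factors, and glucose itself raises the liver pyruvate kinase gene through the factor ChREBP.

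Upstream sequence is shown for 4 genes because they differ in the results that follow: ALDOC, PFKFB4 and PKLR were higher in hepatospheres and LDHA was not. Each is the 250 bases before a RefSeq transcription start in GRCh38.p14, read 5′ to 3′ on the strand of the gene. In ALDOC, PFKFB4 and LDHA, capitals mark ACGTG on either strand, a form of the core of the site that hypoxia-inducible factors bind. Overlapping matches run together, and other forms of this core were not searched. In PKLR, capitals mark a match to the carbohydrate response element consensus, which ChREBP binds. The stretches lie at chr17:28576896-28577145 on the minus strand (ALDOC), chr3:48556804-48557053 on the minus strand (PFKFB4), chr11:18394313-18394562 on the plus strand (LDHA, the first of 2 starts in the table) and chr1:155300953-155301202 on the minus strand (PKLR, the downstream one of 2 starts).
ALDOC: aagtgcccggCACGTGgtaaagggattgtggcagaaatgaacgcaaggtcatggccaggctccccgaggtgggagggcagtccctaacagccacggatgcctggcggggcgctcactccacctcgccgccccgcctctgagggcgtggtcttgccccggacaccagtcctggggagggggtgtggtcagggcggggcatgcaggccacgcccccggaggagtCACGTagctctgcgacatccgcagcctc
PFKFB4: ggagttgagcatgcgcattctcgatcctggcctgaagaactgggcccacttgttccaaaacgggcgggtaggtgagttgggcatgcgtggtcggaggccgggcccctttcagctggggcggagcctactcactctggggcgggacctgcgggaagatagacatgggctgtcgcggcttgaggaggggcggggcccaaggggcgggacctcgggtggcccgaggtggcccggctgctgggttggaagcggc
LDHA: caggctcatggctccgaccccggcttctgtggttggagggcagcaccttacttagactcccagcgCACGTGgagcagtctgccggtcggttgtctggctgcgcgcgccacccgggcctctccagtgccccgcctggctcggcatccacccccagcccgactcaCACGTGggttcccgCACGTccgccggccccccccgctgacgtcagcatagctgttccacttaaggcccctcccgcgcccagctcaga
PKLR: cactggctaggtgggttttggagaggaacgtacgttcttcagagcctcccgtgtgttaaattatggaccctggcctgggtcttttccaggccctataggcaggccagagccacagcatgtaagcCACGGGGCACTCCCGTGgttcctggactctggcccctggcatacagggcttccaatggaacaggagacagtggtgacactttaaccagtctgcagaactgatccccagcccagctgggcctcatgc

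Of the 32 genes, 29 had promoters in the RefSeq table, 56 in all. ACGTG stood on either strand in 37.5% of these 56 promoters and in 18.5% of all 35116 promoters of the same length. Counted by gene, 16 of the 29 held it in at least 1 promoter, beside 21.7% of all 27305 genes in the table. The members have more promoters per gene than the table as a whole, which favours them in the count by gene. Promoters of the same gene can also overlap and hold the same site, as in G6PC3. It occurred in 3 of the 5 genes with a promoter whose signal was higher in hepatospheres by 2-fold or more, in 0 of 2 that were lower by as much and in 12 of 19 within 2-fold, groups too small to set apart from each other. LDHA held 5 matches to ACGTG at 3 places and differed little, and PFKFB4 held 0 and was among the highest. Other forms of the core were not searched, so a count of 0 does not show that a promoter lacks a site. The carbohydrate response element matched 1 of the 56 promoters, that of PKLR, and 28 of all 35116 (0.0797%). A match describes letters only.

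The set did not move as a block. A gene was counted as measured when its brightest probe set reached a floor of 84.1 signal units, the higher of the medians of the 2 arrays, on at least 1 array, and signals under the floor were set to it. Of the 32 genes, 29 were measured, 28 of them on both arrays, and the other 3 (PFKFB1, ENO2 and FBP1) were below the floor on both. PKLR passed through its hepatosphere signal alone and so could only count as higher. Of the 29, hepatospheres were at least 2-fold higher for 6, 20.7%, beside 12.5% of all 12766 genes measured. At least 2-fold lower were 3 of the 29, 10.3%, beside 8.83% of all genes. The remaining 20 were within 2-fold. Because the list was chosen with earlier results of these data known, its shares only describe the list. At 4-fold, 5 of the 29 were higher (17.2%, beside 2.99% of all genes) and 1 was lower (3.45%, beside 1.05%). Of these 5, HK1 stood on the 4-fold line, at 1200 in hepatospheres and 300 in differentiated cells. Its log2 difference was 1.75 with median centring, 1.99 with quantile normalization and 0.97 with scaling to poly(A) control RNAs. The median log2 difference, hepatospheres minus differentiated cells, was 0.13 over the 29 genes and 0.05 over all genes, and 16 of the 29 lay above 0. So the members read near the middle of all genes, with a few of them far out on the upper side and SLC2A2 far out on the lower side.

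**Figure D1:**
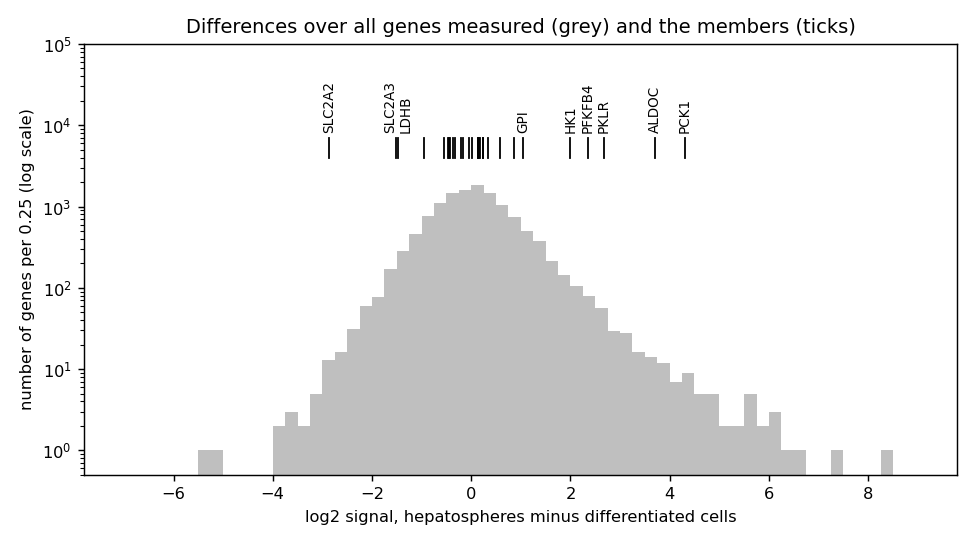
Histogram of log2 differences (hepatospheres minus differentiated cells) of all 12766 genes measured, on a log count axis, with a tick for each of the 29 measured members and names for those at least 2-fold apart. Most ticks lie near 0, with PCK1 and ALDOC at 4.31 and 3.70 and SLC2A2 at -2.86.

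The directions are relative to the bulk of genes on each array. With poly(A) control RNAs as the basis of scaling, the median of all genes stood at -0.93, and 4 members were at least 2-fold higher (PCK1, ALDOC, PKLR and PFKFB4) and 14 lower. With median centring, which put the median of all genes at -0.19, these counts were 5 and 4. Over all genes the split was 1601 higher and 1127 lower as deposited, 1181 and 1902 with median centring, and 399 and 5764 with scaling to the controls.

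**Figure D2:**
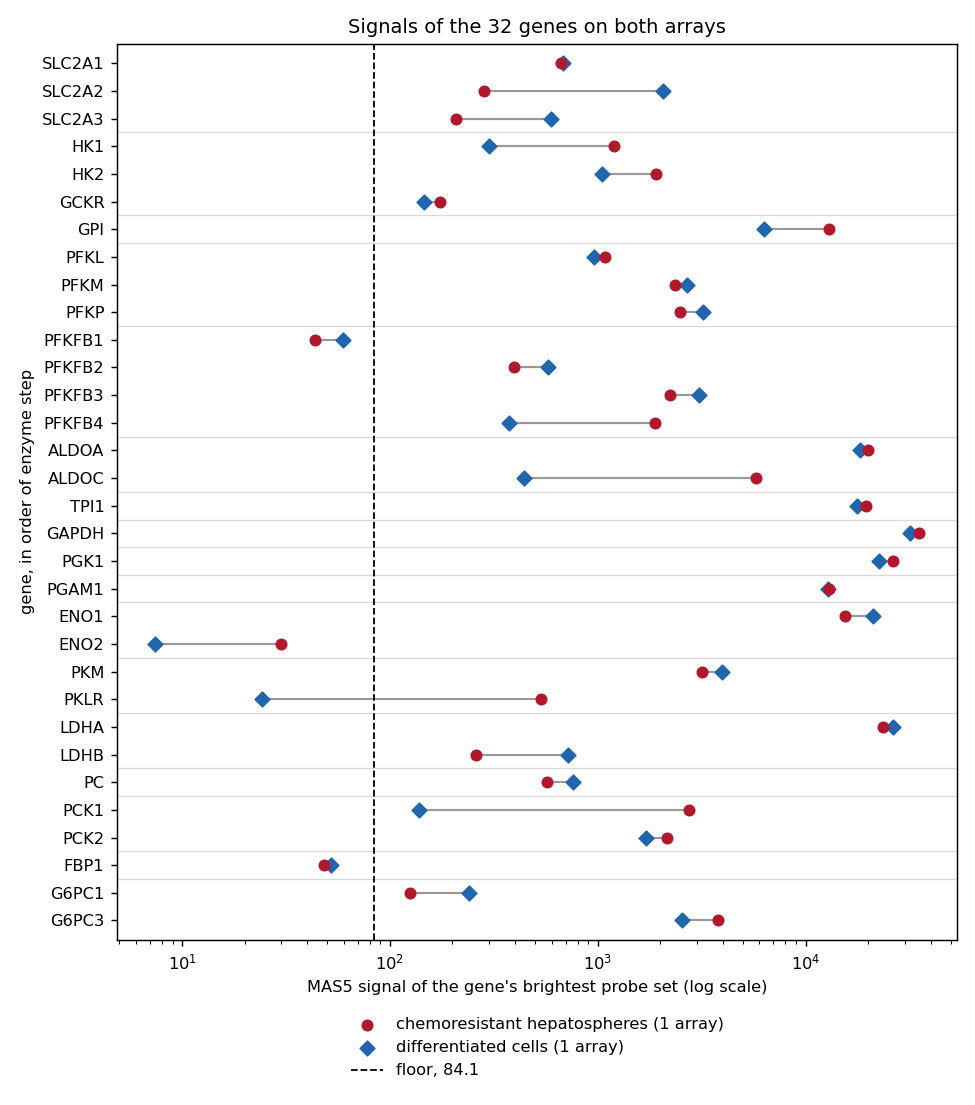
MAS5 signal of each gene's brightest probe set in hepatospheres (circles) and differentiated cells (diamonds), on a log axis, with genes in order of enzyme step and the floor of 84.1 as a dashed line. Signals of different genes come from different probes, so only the 2 points of 1 gene can be compared. PCK1, ALDOC and PKLR have the widest gaps among genes that reached the floor, and ALDOA, TPI1, GAPDH and PGAM1 have nearly overlapping points.

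Of the 3 glucose transporters among the members, SLC2A1 was nearly equal in the cultures, and SLC2A2 and SLC2A3 were lower in hepatospheres. SLC2A1 encodes GLUT1, the transporter of most dividing cells, and had a signal of 665 in hepatospheres and 682 in differentiated cells. SLC2A2 encodes GLUT2, the low-affinity transporter of hepatocytes and pancreatic beta cells. Its signal was 285 in hepatospheres and 2063 in differentiated cells, a 7.24-fold lower value (log2 difference -2.86), which placed it 22nd from the bottom of the 12766 genes. SLC2A3, which encodes the high-affinity transporter GLUT3, had a signal of 209 in hepatospheres and 599 in differentiated cells, 2.87-fold lower. Its 3 probe sets were all lower, by 0.74 to 1.52 on the log2 scale, and all have names that mark shared or cross-matching sequence. A further 2 probe sets are annotated to SLC2A3 and to a paralog together and were not used, and transcripts of the paralog may also bind the 3 used.

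Hexokinases phosphorylate glucose and so trap it in the cell. HK1, the broadly expressed form, had a signal of 1200 in hepatospheres and 300 in differentiated cells, a 4-fold higher value on its only probe set. With scaling to the poly(A) controls HK1 stood at 0.97 on the log2 scale. HK2, the form that insulin and low oxygen induce, had a signal of 1916 in hepatospheres and 1051 in differentiated cells on its brightest probe set, 1.82-fold apart. The other 2 HK2 probe sets went the other way at low signal, with 63.5 and 5.77 in hepatospheres and 90.8 and 108 in differentiated cells. Scaling to the controls put HK2 at -0.16. GCKR, the protein that holds glucokinase inactive in the hepatocyte nucleus, read 174 in hepatospheres and 146 in differentiated cells, which is within 2-fold.

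GPI, which interconverts glucose 6-phosphate and fructose 6-phosphate, had a signal of 12952 in hepatospheres and 6309 in differentiated cells. That is 2.05-fold higher, just past the 2-fold line, and it fell inside the line with median centring (0.78 on the log2 scale), with quantile normalization (0.98) and with scaling to the controls (0.01). Phosphofructokinase commits the sugar to glycolysis, and none of its 3 subunit genes was 2-fold apart. PFKL, the liver subunit, had 1084 in hepatospheres and 958 in differentiated cells. PFKM, the muscle subunit, had 2341 in hepatospheres and 2683 in differentiated cells. PFKP, the platelet subunit, had 2496 in hepatospheres and 3203 in differentiated cells. Their log2 differences lay between -0.36 and 0.18, and this was the only step with several measured isoforms where these stayed within 2-fold of each other.

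The PFKFB enzymes make and break down fructose 2,6-bisphosphate, the strongest activator of phosphofructokinase and an inhibitor of the opposing phosphatase. PFKFB4 had a signal of 1896 in hepatospheres and 373 in differentiated cells, 5.08-fold higher, and only 1.93% of all genes were further up. Its other probe set was below the floor on both arrays, at 11.2 in hepatospheres and 8.22 in differentiated cells, and the mean over both stood at 1.17. PFKFB3, the form with the highest kinase activity, read 2233 in hepatospheres and 3066 in differentiated cells, and PFKFB2, the heart form, 397 in hepatospheres and 578 in differentiated cells. Both were lower within 2-fold, with log2 differences of -0.46 and -0.54. The 3 probe sets of PFKFB1, the liver and muscle form, stayed below the floor on both arrays, between 5.41 and 48.6 in hepatospheres and between 6.06 and 59.4 in differentiated cells. PFKFB4 and PFKFB2 thus differed from each other by 2.89 on the log2 scale.

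Aldolase splits fructose 1,6-bisphosphate into triose phosphates. ALDOC, the form best known from brain, had a signal of 5767 in hepatospheres and 444 in differentiated cells, 13-fold higher, the 61st highest difference of all 12766 genes. ALDOA, the muscle and general form, had 20054 in hepatospheres and 18355 in differentiated cells on its brightest probe set, and its 3 probe sets lay between -0.18 and 0.13. The difference of ALDOC exceeded that of ALDOA by 3.57 on the log2 scale.

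The bright enzymes that handle triose phosphates barely differed on their brightest probe sets. GAPDH, which oxidises glyceraldehyde 3-phosphate, read 35222 in hepatospheres and 31700 in differentiated cells, and PGAM1, the mutase, 12974 in hepatospheres and 12872 in differentiated cells. TPI1, which interconverts the trioses, had 19473 in hepatospheres and 17619 in differentiated cells, although 1 dim probe set of 3 read 215 in hepatospheres and 506 in differentiated cells. PGK1, which makes the first ATP of the pathway, had 26410 in hepatospheres and 22488 in differentiated cells. Its 6 probe sets spread from -0.69 to 1.23, with the extreme upper value from the dimmest, at 254 in hepatospheres and 108 in differentiated cells. The lowest value came from a brighter probe set, at 4280 in hepatospheres and 6888 in differentiated cells. Of the 8 members with signals over 5000 on both arrays, GPI alone was 2-fold apart, beside 8.63% of all 1031 genes that bright. Of the other 21 measured members 8 were 2-fold apart (38.1%), beside 22.5% of the other 11735 genes.

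Enolase makes phosphoenolpyruvate. ENO1, the general form, had 15455 in hepatospheres and 21138 in differentiated cells, a log2 difference of -0.45, and 3 of its 4 probe sets were lower. The fourth read 180 in hepatospheres and 50 in differentiated cells, so without probe sets of shared-sequence names ENO1 stood at 1.10. ENO2, the neuronal form, was below the floor on both arrays, at 30 in hepatospheres and 7.43 in differentiated cells. The muscle enolase ENO3, from the list of further isozymes, was by contrast 21.7-fold higher, with 2365 in hepatospheres and 109 in differentiated cells. Its 2 probe sets were both higher, but by 0.82 and 4.44 on the log2 scale, with a mean of 2.63.

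Pyruvate kinase makes pyruvate and ATP. PKLR, the liver and red cell form, was below the floor in differentiated cells on all 3 of its probe sets and above it in hepatospheres on all 3. These read 534, 259 and 122 in hepatospheres and 24.3, 2.31 and 8.11 in differentiated cells. On the brightest, PKLR was at least 6.35-fold higher, and this bound ranged from 1.61 to 4.46 on the log2 scale over the alternatives, the upper end being the value without a floor. PKM, the form of most tissues and tumours, had 3189 in hepatospheres and 3969 in differentiated cells on the brightest of 2 probe sets, and 571 in hepatospheres and 356 in differentiated cells on the other. These 2 probe sets went opposite ways within 2-fold. The PKLR difference exceeded that of PKM by at least 2.98 on the log2 scale.

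Lactate dehydrogenase is a tetramer of A and B subunits. LDHA, which favours lactate formation, had 23517 in hepatospheres and 26441 in differentiated cells on its only probe set. LDHB, which favours pyruvate, was 2.77-fold lower, at 261 in hepatospheres and 723 in differentiated cells. Its second probe set was lower by more, at 96.9 in hepatospheres and 1133 in differentiated cells (log2 difference -3.55). Both LDHB probe sets carry names for cross-matching sequence.

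Among the enzymes used for gluconeogenesis, 1 of 5 measured was 2-fold higher and 0 lower, counts too small to set apart from the 12.5% and 8.83% of all genes. PCK1, the cytosolic PEP carboxykinase that sets the pace of hepatic gluconeogenesis, had a signal of 2740 in hepatospheres and 138 in differentiated cells, 19.9-fold higher and 36th of all genes. PCK2, its mitochondrial counterpart, had 2160 in hepatospheres and 1709 in differentiated cells, so the PCK1 difference was larger by 3.98 on the log2 scale. PC, which carboxylates pyruvate in mitochondria, had 570 in hepatospheres and 760 in differentiated cells. FBP1, which removes the first phosphate of fructose 1,6-bisphosphate, was below the floor on both arrays, at 48.4 in hepatospheres and 51.8 in differentiated cells. G6PC1, the hepatic glucose 6-phosphatase that releases free glucose, had 125 in hepatospheres and 241 in differentiated cells, 1.94-fold lower and just inside 2-fold. It passed the 2-fold line with median centring (-1.21), quantile normalization (-1.12), loess (-1.06) and scaling to the controls (-1.77). Its second probe set read 89 in hepatospheres and 112 in differentiated cells (log2 difference -0.33). Over all alternatives G6PC1 ranged from -1.77 to -0.64. G6PC3, the broadly expressed form, had 3776 in hepatospheres and 2539 in differentiated cells, and its 2 probe sets stood at 0.56 and 0.57, but at -0.46 for the brighter one with scaling to the controls. With that scaling PCK2 stood at -0.69.

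**Figure D3:**
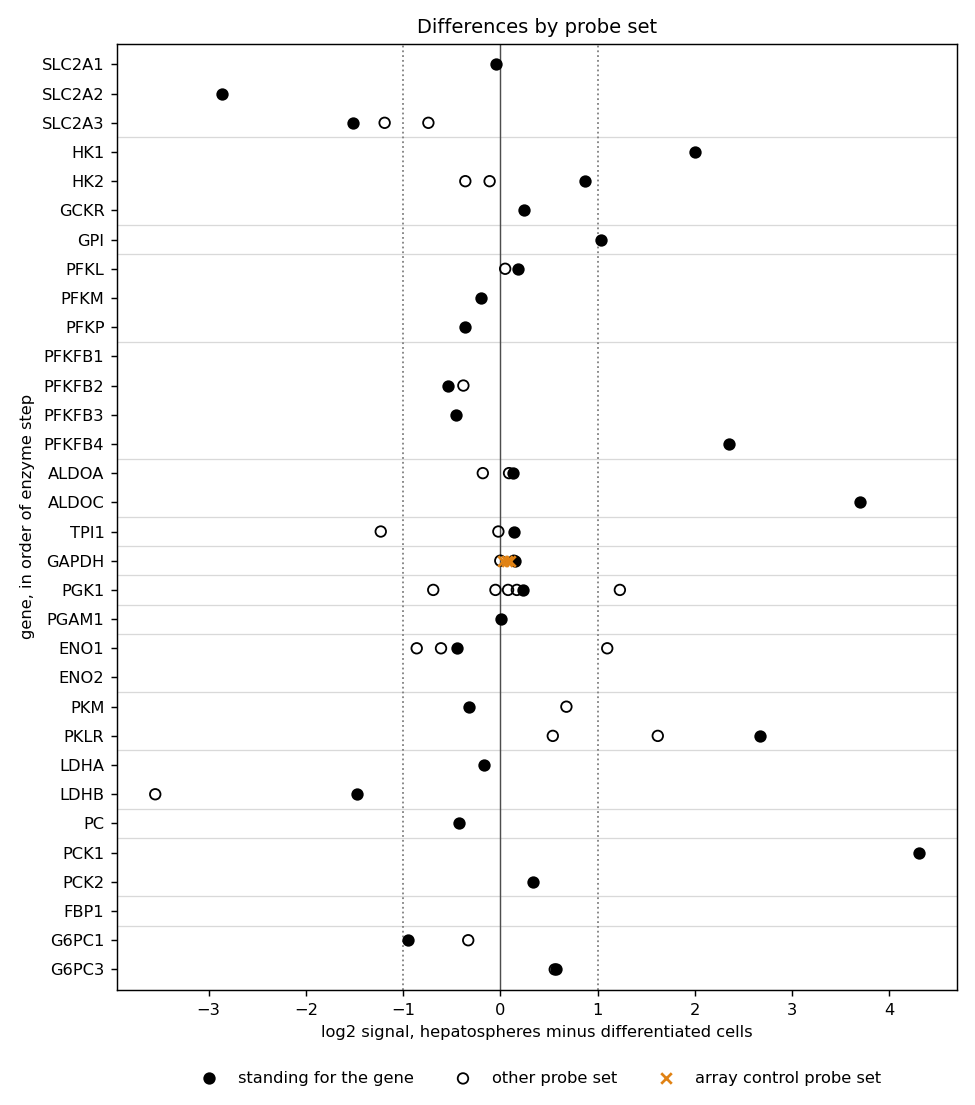
Log2 difference (hepatospheres minus differentiated cells) of each member probe set that reached the floor on at least 1 array, by gene. Filled circles stand for the gene, open circles are its other probe sets, crosses are the array's own GAPDH control probe sets, and dotted lines mark 2-fold. PKLR, LDHB and SLC2A3 lie on 1 side of 0 on every probe set shown, and HK2, ENO1, PGK1, PKM and TPI1 have points on both sides.

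Isoforms of a step were compared through their differences, in which a common scale factor cancels. Of 9 steps with over 1 measured isoform, 8 had isoforms that differed from each other by at least 2-fold in their change between the cultures. No like count was made for groups of other genes, so this count has no share to be read against. The distance runs from the highest to the lowest isoform, so a step with 3 isoforms reaches 2-fold more easily than a step with 2. The distance was widest for PEP carboxykinase (3.98 on the log2 scale), aldolase (3.57), pyruvate kinase (at least 2.98), fructose 2,6-bisphosphate (2.89) and glucose uptake (2.82). It was 1.53 for glucose 6-phosphatase, 1.30 for lactate dehydrogenase and 1.13 for hexokinase. In each of these 8 steps at least 1 isoform was within 2-fold, and in 7 another was 2-fold apart, the exception being glucose 6-phosphatase. Most of all genes were also within 2-fold, with 12.5% at least 2-fold higher and 8.83% lower. The isoform within 2-fold was SLC2A1, HK2, PFKFB2 and PFKFB3, ALDOA, PKM, LDHA, PCK2, and both G6PC1 and G6PC3. Over the alternatives that gave a value, the distance stayed at 2-fold or more in the 8 steps, except for hexokinase in 1 of 11, where it was lowest at 0.92. Part of this was fixed in advance. Median centring and scaling to the controls apply a common factor, so they could move a distance only through the floor. The choice of probe set could not move that of PCK1 and PCK2, with 1 probe set each. No replicate shows how far isoforms differ by array error alone. Of the 14 members with over 1 probe set at the floor, 7 had probe sets in both directions, and 15 members rest on 1 probe set. Among these 7, ALDOA (-0.18 to 0.13) and GAPDH (0 to 0.15) stayed close to 0 on every probe set.

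**Figure D4:**
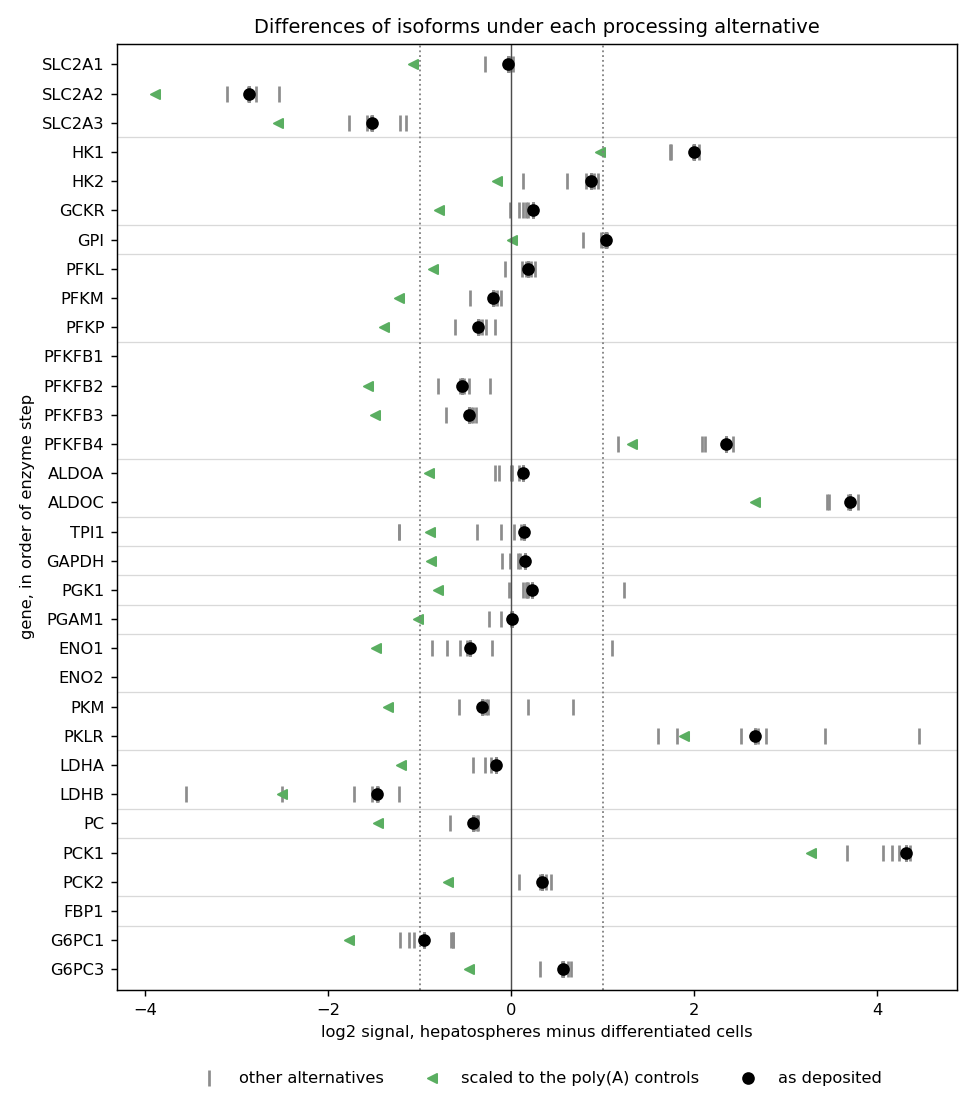
Log2 difference (hepatospheres minus differentiated cells) of each measured member as deposited (circles), scaled to the poly(A) control RNAs (triangles) and under the other processing alternatives (bars), with genes grouped by enzyme step between the grey lines. Scaling to the controls moves most genes left by about the same amount, so that the distances between isoforms of a step, such as 3.57 between ALDOC and ALDOA, hardly move.

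Genes of neighbouring routes were counted from further lists, to be read against the 12.5% higher and 8.83% lower of all genes. A gene under the floor in differentiated cells alone could only count as higher. Of 15 other isozymes of the same steps, 7 were measured, and ENO3 alone was 2-fold apart. BPGM, ADPGK and LDHC were within it, with log2 differences of 0.38, -0.21 and 0.18. Of 16 further sugar and lactate carriers, 9 were measured, 3 were at least 2-fold higher (33.3%, beside 12.5% of all genes) and 0 lower (beside 8.83%), with a median of 0.67. One of the 3, SLC2A12, entered through its hepatosphere signal alone. SLC2A6 was 3.56-fold higher, with 470 in hepatospheres and 132 in differentiated cells, and SLC2A12 at least 3.20-fold, with 269 in hepatospheres and 37.8 in differentiated cells, a log2 bound that shrank to 0.82 both with a 60th percentile floor and without shared-sequence probe sets. SLC2A5, the fructose transporter, read 200 in hepatospheres and 85.0 in differentiated cells, barely over the floor, and stood at 0.39 with the floor at the 60th percentile. SLC2A9, the urate carrier, stood at -0.77.

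In the pentose phosphate pathway, which makes NADPH and ribose, 7 of 9 listed genes were measured, 0 were 2-fold higher and 1 was lower (14.3%, beside 8.83% of all genes), with a median of -0.30. That was the transaldolase TALDO1, 2.20-fold lower, with 7577 in hepatospheres and 16631 in differentiated cells. PGD and RPIA stood at -0.86 and -0.78. The transketolase TKT stood at 0.33 on its brightest probe set, with 1 of its 3 probe sets at -0.97, and at -0.70 with scaling to the controls.

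Of 21 glycogen genes, 17 were measured, 3 were higher (17.6%, beside 12.5% of all genes) and 1 lower (5.88%, beside 8.83%), with a median of 0.28. These shares lie near those of all genes, and 2 of the 17, PPP1R3C among them, entered through their hepatosphere signal alone. The higher ones included 2 glycogen-targeting subunits of protein phosphatase 1, PPP1R3B at 707 in hepatospheres and 217 in differentiated cells (3.26-fold) and PPP1R3C at 272 in hepatospheres and 15.8 in differentiated cells (at least 3.23-fold). PPP1R3B stood at 0.57 with the mean over probe sets and PPP1R3C at 0.85, and at 0.83 with the floor at the 60th percentile. GAA, the lysosomal glucosidase, was 2.21-fold higher. GYG2, the liver form of the glycogen primer glycogenin, was 2.92-fold lower, with 574 in hepatospheres and 1679 in differentiated cells. Of 16 genes of fructose, galactose and glycerol entry, 10 were measured, 2 were higher (20%, beside 12.5% of all genes) and 0 lower (beside 8.83%), with a median of 0.44. LPIN1, a phosphatidate phosphatase, was 4.97-fold higher (1.37 on the log2 scale with the mean over probe sets) and GPD1L 3.42-fold. LPIN2 and the fructokinase KHK both stood at 0.89, and both at -0.14 with scaling to the controls.

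Of 28 transcriptional and signalling regulators of sugar metabolism, 26 were measured, 3 were higher (11.5%, beside 12.5% of all genes) and 1 lower (3.85%, beside 8.83%), with a median of -0.40. Both shares are below those of all genes. TXNIP, which restrains glucose uptake and is a textbook target of ChREBP, was 13.2-fold higher, with 1794 in hepatospheres and 136 in differentiated cells, and its 3 probe sets were higher by 0.90 to 3.72, with a mean of 2.28. The search for the carbohydrate response element gave 0 matches for TXNIP. IRS2, an adaptor of the insulin receptor, was 4.28-fold higher, at 7026 in hepatospheres and 1641 in differentiated cells. PPARA, the fasting-response nuclear receptor, was 3.22-fold higher on its brightest probe set, and 7 of the 8 probe sets at the floor or above were higher, with a mean over probe sets of 0.77. CEBPA, a hepatocyte factor that acts on PCK1, was 3.67-fold lower, at 1624 in hepatospheres and 5955 in differentiated cells. The other 22 were within 2-fold. They include the subunits of the factors behind the 2 motifs searched above, named for that reason after their values were seen: HIF1A stood at 0.54, EPAS1 at -0.60 and their partner ARNT at -0.37, and MLXIPL (ChREBP) at 0.66 and its partner MLX at 0.15.

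The labelled cell type was checked against markers. Of 11 hepatocyte markers, 10 were measured. Of these, 3 were at least 2-fold higher in hepatospheres (30%, beside 12.5% of all genes) and 1 lower (10%, beside 8.83%). The higher ones were ALB, APOA2 and TTR and the lower one was KRT8, and KRT18 and APOA1 were lower within 2-fold. The summed signal of the hepatocyte markers was 222848 in hepatospheres and 142086 in differentiated cells. Such a sum adds signals of different probes and is weighted to the brightest, such as APOA2 at 47101 in hepatospheres and 9295 in differentiated cells. Fibroblast markers summed to 4176 in hepatospheres and 505 in differentiated cells, with 5 of 7 measured, 4 of them through hepatospheres alone. Of the 5, 2 were at least 2-fold higher (40%, beside 12.5% of all genes) and 0 lower (beside 8.83%). These were LUM, at 2677 in hepatospheres and 1.14 in differentiated cells, and COL3A1, at 679 in hepatospheres and 42.6 in differentiated cells. The other 3, COL1A1, DCN and THY1, were within 2-fold. Of 5 endothelial markers, 4 were below the floor on both arrays and PECAM1 read 3787 in hepatospheres and 3388 in differentiated cells. Of 6 leukocyte markers, 3 (PTPRC, CD3E and CD14) were below the floor on both arrays, 2 were not analysed here and LYZ read 10454 in hepatospheres and 6364 in differentiated cells. The summed signals of these lists were 3862 and 10547 in hepatospheres and 3458 and 6496 in differentiated cells. The array's poly(A) control RNAs were 2.04-fold brighter in hepatospheres. The 3′ to 5′ signal ratio of ACTB was 2.64 in hepatospheres and 1.48 in differentiated cells, whereas that of the member GAPDH was 1.04 in hepatospheres and 0.987 in differentiated cells. The part of these differences in the results was not tested.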

How the data were processed

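Total RNA from 2 PLC/PRF/5 cultures was hybridised to 1 array each. The authors deposited intensity values, 1 linear MAS5 signal per probe set. The submitters' processing notes name MAS5, and the sources used here give neither a version nor a scaling target. It subtracts background, which makes dim signals noisy, and scales each array globally, which brings the arrays to a similar level. The medians as deposited still differed, at 84.1 in hepatospheres and 70.6 in differentiated cells, so the floor used here is the hepatosphere median. No detection calls were used.

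Of 54675 probe sets, 62 were controls and 41091 paired with 1 symbol in GEO's array annotation, of which 41037 matched a RefSeq gene by ID. Among the member probe sets, 3 were the array's GAPDH controls and were kept apart. The brightest probe set of a gene, by mean log2 signal over both arrays, stood for it. Signals below the floor (the higher of the 50th percentiles of the 2 arrays, 84.1) were set to it, so a fold against such a signal is a bound. No gene is compared in level with another. Differences are log2 hepatospheres minus differentiated cells, with 1 array a group and no test. All members are named, and from each further list up to 4 genes with the largest differences. HIF1A, EPAS1, ARNT, MLXIPL and MLX were named beyond this rule, as factors that bind the motifs searched, and were chosen after their values were seen. The members and lists were chosen with earlier results of these data known. Upstream sequences are from RefSeq (GRCh38.p14), and motifs were searched on both strands of the 250 bases before each start. Alternatives were other scalings (median, quantile, loess with span 0.3, poly(A) controls), other floors (the 40th percentile, the 60th, or none), adding the floor to the signal before log2, and other choices of probe set. Python 3.11.15 was used, with matplotlib 3.10.9, statsmodels 0.14.6, pandas 2.3.3 and numpy 2.4.6.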

Additional observations from a re-analysis of the deposited data

How the results depend on the processing

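With 1 array a group, no replicate could be left out, and array and culture error is unknown for every value. No paired analysis was possible because each group has 1 array. Of the 9 members at least 2-fold apart, 7 stayed at least 2-fold apart in the same direction under every alternative that gave them a value. The exceptions were GPI (0.78 with median centring, 0.98 with quantile normalization, 0.01 with scaling to the poly(A) controls) and HK1 (0.97 with that scaling). Among the 7, ALDOC, SLC2A2 and PCK1 have 1 probe set each, so other choices of probe set could not change their values. GPI, SLC2A3, LDHB and PCK1 have only probe sets of shared-sequence names and so gave no value without these. The median of the members was -0.13 with median centring and -0.90 with scaling to the controls, where 14 members were at least 2-fold lower. Over all genes, counts higher and lower at 2-fold were 399 and 5764 with scaling to the controls and 4232 and 2431 without a floor, against 1601 and 1127, and 1902 were lower with median centring. At 4-fold the count higher was 120 with scaling to the controls, 1732 without a floor and 229 with the mean over probe sets, against 382. Among members within 2-fold but over 0.3 apart, the sign changed for HK2, PCK2 and G6PC3 with scaling to the controls (-0.16, -0.69 and -0.46), for ENO1 without shared-sequence probe sets (1.10), and for PKM with the mean over probe sets (0.18) and with its most different probe set (0.68). Among the further genes, scaling to the controls put SLC2A5 (0.20), SLC2A6 (0.80), SLC2A12 (0.90), PPP1R3B (0.67), PPP1R3C (0.91), GAA (0.11), GPD1L (0.74) and PPARA (0.66) inside 2-fold, as did median centring for GAA (0.89) and SLC2A5 (0.98). Signals near the floor, as for PCK1, ENO3, TXNIP, SLC2A6 and SLC2A5 in differentiated cells and G6PC1 in hepatospheres, limit the precision of their folds.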
